A study of Mus musculus with 24 samples.

Results

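The GDNF family receptors are the shared signalling receptor Ret and the 4 ligand-binding co-receptors Gfra1, Gfra2, Gfra3 and Gfra4. These 5 genes were taken by symbol, through the GENCODE M21 annotation of the gene identifiers, from the 38924 genes in the deposited tables, and all 5 passed the filter on low counts with 17409 genes in all. The measurements are RNA-seq of whole spinal cord from 24 mice aged 8 weeks, 13 male and 11 female, on a background labelled B6J;CASTxB6.129 that every group shares.

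The mice carried combinations of a Gcn2 allele and a Gars allele. Gcn2, encoded by Eif2ak4, is the kinase that phosphorylates the translation factor eIF2 when uncharged tRNA accumulates, and Gars is glycyl-tRNA synthetase, in which dominant mutations cause an inherited axonal neuropathy. The groups were Gcn2+/+;Gars+/+ (n = 4), Gcn2+/+;GarsP278KY/+ (n = 4), Gcn2+/-;Gars+/+ (n = 4), Gcn2+/-;GarsP278KY/+ (n = 4), Gcn2-/-;Gars+/+ (n = 3) and Gcn2-/-;GarsP278KY/+ (n = 5). Sex was unevenly spread over the groups. With Gcn2+/+, males were 3 of 4 mice with wild-type Gars and 1 of 4 with mutant Gars. With Gcn2+/- they were 3 of 4 and 2 of 4, and with Gcn2-/- 1 of 3 and 3 of 5. The Gcn2+/- mice are in the sample labels and not in the stated design. The labels name no litters, so p-values measure the spread between these mice.

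Glial cell line-derived neurotrophic factor and its relatives neurturin, artemin and persephin are secreted proteins that keep motor, sensory and autonomic neurons alive. Each ligand is bound by a preferred co-receptor tethered to the outer membrane (GFRα1 for GDNF, GFRα2 for neurturin, GFRα3 for artemin, GFRα4 for persephin), and the pair recruits RET, a transmembrane tyrosine kinase that signals through adaptors to the MAP kinase and PI3 kinase pathways. In spinal cord, Ret and Gfra1 are known in motor neurons, and Gfra3 is known mainly in sensory neurons, whose cell bodies lie outside the cord.

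Library totals ran from 19.7 M to 32.4 M counts. The labels were checked on Eif2ak4, which averaged 31.2 ± 2.39 CPM (counts scaled to the library total; SD, n = 4) in Gcn2+/+;Gars+/+ and 13.6 ± 1.91 (SD, n = 3) in Gcn2-/-;Gars+/+ cords, a log2 change of -1.21 ± 0.10 (SE, adjusted p = 7.32e-07). The deposited gene-level counts of Gars do not separate the mutant from the wild-type allele, and the level of Gars passed the test in none of the comparisons. Cords of the groups held abundant astrocyte, oligodendrocyte and neuron transcripts. Genes of Schwann cells and nerve roots (12 listed) stood apart in 4 libraries: their summed level was 1081 and 2347 CPM in replicates 2 and 4 of Gcn2+/+;GarsP278KY/+, 1071 and 1982 CPM in replicates 1 and 3 of Gcn2+/-;Gars+/+, and 72.4 to 300.7 CPM in the other 20. Among those 20, 3 libraries stood highest by the mean log2 CPM of the 12 genes. They were replicate 4 of Gcn2+/-;GarsP278KY/+ (2.92, 300.7 CPM summed), replicate 3 of Gcn2+/+;GarsP278KY/+ (1.64) and replicate 5 of Gcn2-/-;GarsP278KY/+ (1.58). Leaving out replicates 2 and 4 of Gcn2+/+;GarsP278KY/+ thus keeps a library with raised nerve root genes. Results that rest on the 4 libraries are given with their values.

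Levels between genes were compared on the deposited TPM, which is per transcript length. Gfra1 was the most abundant of the 5 at 53.3 ± 4.45 TPM (SD over 24 libraries), followed by Ret at 34.3 ± 2.87, Gfra4 at 19.3 ± 6.01, Gfra2 at 15.8 ± 1.37 and Gfra3 at 0.266 ± 0.130 TPM. The Gfra1 range (48.3 to 61.3 TPM) lay above the Ret range (28.7 to 40.2 TPM) with no overlap. Gfra4 (9.57 to 30.7 TPM) overlapped both Ret and Gfra2 (13.3 to 18.4 TPM), and Gfra3 (0.07 to 0.54 TPM) lay far below all others. The place of Gfra4 in this order went with Gcn2 genotype: in Gcn2+/+ mice its mean of 12.9 ± 3.42 TPM was below the 16.0 ± 1.41 TPM of Gfra2 (SD, n = 8 each), and in Gcn2-/- mice its lowest library (18.5 TPM) was above the highest Gfra2 value (17.8 TPM). A fall in a transcript of whole cord can come from fewer cells of a type or from less RNA per cell, and these cannot be told apart here.

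**Figure D1:**
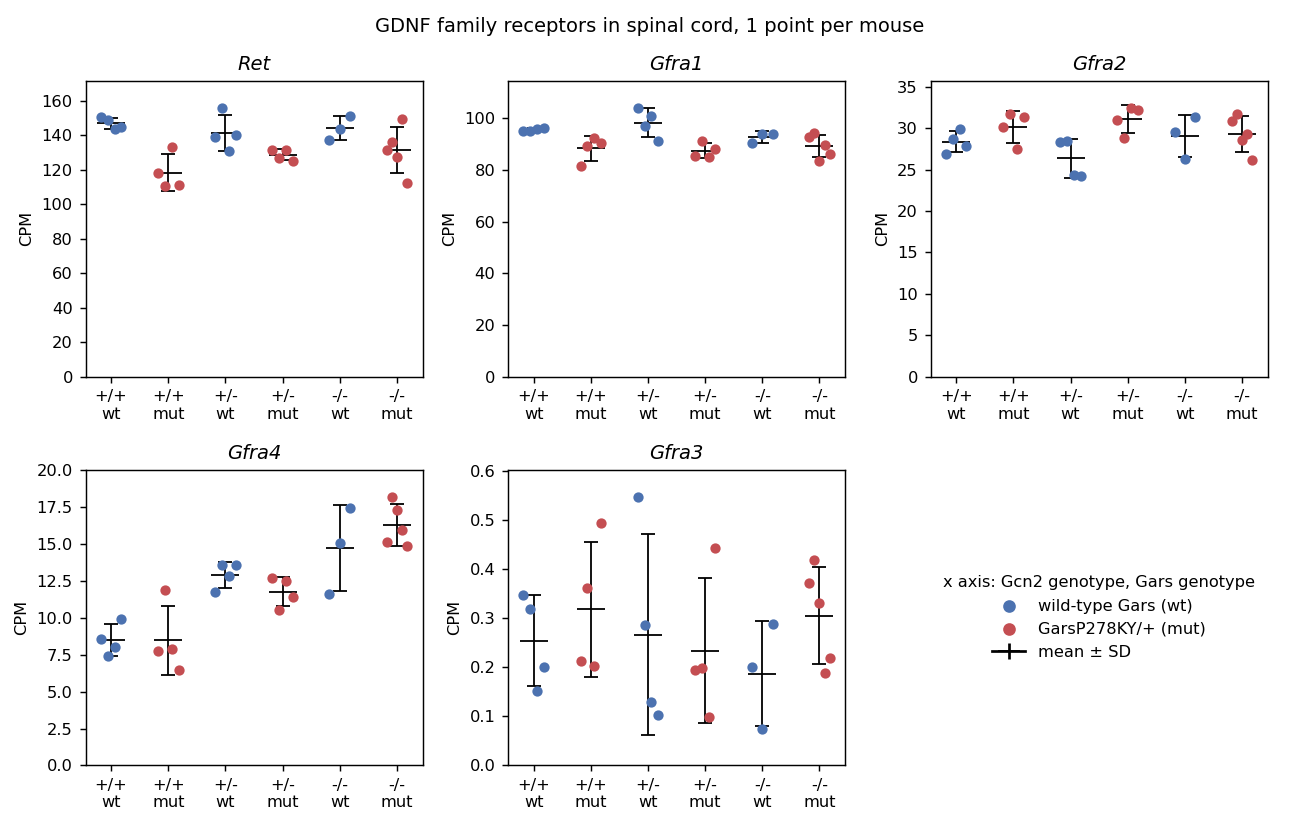
CPM of each receptor gene (y axis, from 0) in each mouse, by Gcn2 genotype and Gars genotype (x axis); bars are the mean ± SD. The Gfra4 group means are 8.47, 8.48, 12.9, 11.8, 14.7 and 16.3 CPM from left to right. The Ret points of Gcn2+/+;GarsP278KY/+ sit below those of Gcn2+/+;Gars+/+.

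Ret, the signalling kinase, is on chromosome 6 (ENSMUSG00000030110, GRCm38 6:118151745-118197718, minus strand), 63.07 Mb from Gars on the same chromosome. In Gcn2+/+ mice with wild-type Gars its level was 150.4, 148.6, 143.5 and 144.9 CPM. With mutant Gars it was 118.2, 110.3, 133.4 and 111.3 CPM. All 4 mutant libraries lay below all 4 wild-type ones, a separation in this direction that 4.16% of tested genes shared. The log2 change was -0.31 ± 0.08 (SE, 95% interval -0.47 to -0.15), a fold of 0.805, and it missed the threshold over all genes (adjusted p = 0.0583). In this comparison 0.632% of tested genes were called at an adjusted p under 0.05 in edgeR's quasi-likelihood test, and 0 of the 5 receptor genes were. An unadjusted p under 0.05 was reached by Ret (5.29e-04) and Gfra1 (0.0476), and by 17.3% of all tested genes. DESeq2 called Ret at -0.32 (adjusted p = 0.00701), and edgeR without the sex term called it at -0.31 (adjusted p = 0.0329). It was also called in 3 of the 24 fits that left 1 library out. These gave -0.31 (adjusted p = 0.0475) without replicate 1 of Gcn2+/+;Gars+/+ and -0.37 (0.0307) without replicate 3 of Gcn2+/+;GarsP278KY/+. Without replicate 5 of Gcn2-/-;GarsP278KY/+ the change was -0.33 (0.0205). Of the 34 alternatives in all, 5 called Ret, and its adjusted p ran up to 0.434. The sample titles begin with numbers of unstated meaning. These were split here into 2 sets, earlier (24905 to 25006) and later (25102 to 25801), a cut that the labels do not give. Within the later numbers the difference of mean log2 CPM was -0.42 (2 against 3 mice) and within the earlier ones -0.19 (2 against 1).

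The estimates for Ret were nearer 0 in the other Gcn2 genotypes, but the effects in Gcn2-/- and Gcn2+/+ mice were not separated by the test of their difference, and those in Gcn2+/- and Gcn2+/+ mice were not tested against each other. In Gcn2+/- mice Ret was 138.8, 155.8, 130.9 and 140.3 CPM with wild-type Gars and 131.1, 126.9, 131.4 and 124.9 CPM with mutant Gars, so the groups overlapped. The log2 change was -0.14 ± 0.07 (SE, adjusted p = 0.389), and the difference of mean log2 CPM was -0.16 within the later title numbers and -0.11 within the earlier ones (2 against 2 mice each). In Gcn2-/- mice it was 137.4, 143.6 and 151.3 CPM with wild-type Gars and 131.3, 136.1, 127.3, 149.3 and 112.4 CPM with mutant Gars. Here 1 mutant library, replicate 4, lay among the wild-type ones, and the log2 change was -0.13 ± 0.08 (SE, adjusted p = 0.941). Within the earlier title numbers the difference of mean log2 CPM was -0.27 (2 against 3 mice), larger than that within the earlier numbers of Gcn2+/+ mice, and the later numbers held no Gcn2-/- mouse with wild-type Gars. The Gars effect in Gcn2-/- minus that in Gcn2+/+ mice was 0.18 ± 0.11 (SE, 95% interval -0.05 to 0.41, adjusted p = 0.937), an interval that includes both no difference and a difference as large as the Gcn2+/+ effect itself. Across lost Gcn2 copies Ret did not pass the test (0.03 ± 0.03 per copy, SE, adjusted p = 0.934). Gcn2 loss gave -0.03 ± 0.08 with wild-type Gars and 0.15 ± 0.07 with mutant Gars (SE). The latter had a 95% interval from 0.003 to 0.30 and was not called by edgeR (unadjusted p = 0.0455, adjusted p = 0.483). In that comparison 10% of all tested genes had an unadjusted p under 0.05.

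Other cell markers moved in the same libraries. Of 9 tested motor neuron genes, 6 fell with mutant Gars in Gcn2+/+ mice, among them the acetylcholine-synthesising enzyme Chat (-0.55 ± 0.07, adjusted p = 3.77e-04) and the intermediate filament Prph (-0.81 ± 0.11, adjusted p = 6.69e-04); the median over the 9 was -0.72 against 0.01 over all tested genes. The summed level of these genes ran from 203.5 to 240.7 CPM in Gcn2+/+;Gars+/+ and from 126.1 to 149.8 CPM in Gcn2+/+;GarsP278KY/+ cords. In Gcn2+/- mice 4 of the 9 fell, and in Gcn2-/- mice 2 did, where the summed level ran from 186.9 to 220.1 CPM with wild-type Gars and from 162.9 to 191.6 CPM with mutant Gars. The 12 Schwann cell genes had a median log2 change of 3.05 in Gcn2+/+ mice, with 0 called by edgeR, 6 at an unadjusted p under 0.05 and 6 called by DESeq2. The 12 genes of meninges and fibroblasts had a median of 2.55, with 0 called by edgeR, 10 at an unadjusted p under 0.05 and 5 called by DESeq2; their summed level was 72.1 to 92.7 CPM in Gcn2+/+;Gars+/+ and 71.0 to 1314 CPM in Gcn2+/+;GarsP278KY/+ cords, highest in replicates 4 and 2. Of 4 tested sensory neuron genes 2 rose, P2rx3 (1.86 ± 0.21, adjusted p = 5.41e-05) and Avil (2.43 ± 0.43, adjusted p = 0.00706), and the summed level of the 10 listed ones was 2.77 to 5.35 CPM with wild-type Gars and 8.35 to 9.84 CPM with mutant Gars. With the mean level of the Schwann cell genes as a covariate the Ret change in Gcn2+/+ mice was -0.22 (adjusted p = 0.223), and without the replicates 2 and 4 named above it was -0.23 (adjusted p = 0.292). The fast motor neuron gene Chodl fell in Gcn2+/+ mice (-2.09, called), and the other of the 2 was at 0.08. The 3 gamma motor neuron genes had a median of 0.13 there, with 0 called. The 7 neuron genes had a median of -0.06, with 0 above 0. Of these, edgeR called 0, DESeq2 called Snap25, and 2 had an unadjusted p under 0.05. Of 7 astrocyte and 7 oligodendrocyte genes, 3 and 2 had an unadjusted p under 0.05, and DESeq2 called Slc1a2, an astrocyte gene. The part of these cell markers in the Ret values was not tested otherwise.

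Gfra1, the co-receptor that binds GDNF, is on chromosome 19 (ENSMUSG00000025089, GRCm38 19:58235604-58455909, minus strand). An annotated gene on the other strand, Gm16277, overlaps it, and how the counting used strand is not given in the sources used here. In Gcn2+/+ mice Gfra1 was 95.2, 94.9, 95.7 and 96.3 CPM with wild-type Gars and 81.5, 89.1, 92.6 and 90.4 CPM with mutant Gars. The groups did not overlap, as for Ret and 4.16% of tested genes in this direction, and the log2 change was -0.11 ± 0.05 (SE, 95% interval -0.22 to -0.00129, adjusted p = 0.284). In Gcn2+/- mice it was 104.0, 97.1, 100.8 and 91.1 CPM with wild-type Gars and 85.5, 91.2, 84.9 and 88.0 CPM with mutant Gars. That difference of -0.17 ± 0.05 (SE) had the lowest p of Gfra1 in any comparison (0.00332) and did not pass the adjustment (adjusted p = 0.199). In Gcn2-/- mice, with 90.3, 94.1 and 94.0 CPM against 92.7, 94.2, 83.6, 89.5 and 86.2 CPM, the change was -0.06 ± 0.05 (SE, adjusted p = 0.942). Gfra1 had the point estimate below 0 in all 3 Gcn2 genotypes and was called in none.

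Gfra2, the neurturin co-receptor, is on chromosome 14 (ENSMUSG00000022103, GRCm38 14:70890120-70979838, plus strand). Over 24 libraries it ran from 24.2 to 32.4 CPM. In Gcn2+/- mice it was 28.3, 28.4, 24.3 and 24.2 CPM with wild-type Gars and 31.0, 28.8, 32.4 and 32.1 CPM with mutant Gars, higher without overlap, a separation that 3.78% of tested genes shared. The log2 change was 0.25 ± 0.08 (SE, 95% interval 0.09 to 0.41, adjusted p = 0.203). Of the 5 receptor genes 0 were called in this comparison (0.178% of tested genes), and Gfra1 and Gfra2 (0.00353) had an unadjusted p under 0.05, as did 14.7% of all tested genes; DESeq2 called 0 of the 5. The same contrast was 0.11 ± 0.08 (adjusted p = 0.496) in Gcn2+/+ and 0.00 ± 0.08 (95% interval -0.16 to 0.16, adjusted p = 0.999) in Gcn2-/- mice. The Schwann cell genes had a median log2 change of -2.73 in Gcn2+/- mice (of 12, 0 called by edgeR, 8 at an unadjusted p under 0.05 and 3 called by DESeq2). The meninges and fibroblast genes had a median of -1.74 there (of 12, 0 called by edgeR, 6 at an unadjusted p under 0.05 and 0 called by DESeq2), and 2 of the 4 libraries rich in nerve root genes are Gcn2+/-;Gars+/+. In 9 alternatives, not counting those that left 1 library out, the Gars effect in Gcn2+/- mice ran from 0.24 to 0.27 for Gfra2. For Gfra1 it ran from -0.17 to -0.13. The mean level of the Schwann cell genes as a covariate was 1 of these alternatives, and neither gene was called in any. The 7 neuron genes had a median of 0.12 in Gcn2+/- mice, with 6 above 0. Of these, edgeR called 0, DESeq2 called Slc17a6, and 2 had an unadjusted p under 0.05. The part of these cell markers in the Gfra1 and Gfra2 values was not tested otherwise.

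Gfra4, the persephin co-receptor, was the 1 gene of the 5 that edgeR's quasi-likelihood test called on all 24 libraries with the sex term; Ret was called only under the alternatives given above. Gfra4 lies on chromosome 2 (ENSMUSG00000027316, GRCm38 2:131039632-131043088, minus strand), 12.56 Mb from Eif2ak4, and has 8 annotated transcripts. The microRNA gene Mir6973b overlaps it on the same strand. The 250 bases before the first of its 2 starts in the RefSeq table (RefSeq, GRCm38.p6, chr2:131043089-131043338, minus strand) are shown because Gfra4 was the 1 receptor gene called with Gcn2 genotype.
Gfra4 promoter: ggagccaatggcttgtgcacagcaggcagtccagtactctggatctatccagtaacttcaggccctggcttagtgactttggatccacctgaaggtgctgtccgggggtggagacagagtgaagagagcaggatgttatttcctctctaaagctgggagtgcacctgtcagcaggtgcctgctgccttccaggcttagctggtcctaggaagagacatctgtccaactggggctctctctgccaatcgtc
The sequence has no capitals because neither of the motifs searched on both strands was found in it. They were the C/EBP-ATF element TGATGNAA, bound by ATF4, the transcription factor induced downstream of Gcn2, and the cAMP response element TGACGTCA. Among the 32851 promoter windows of this length in the table, 3.45% held the first and 1.55% the second. The window before the other Gfra4 start (2:131042683-131042932), which lies inside the annotated gene, held neither motif. The same table gave windows for Gfra4 and Gfra1 only of the 5 genes.

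In Gcn2+/+ mice Gfra4 was 8.54, 7.41, 8.00 and 9.93 CPM with wild-type Gars and 7.74, 11.9, 7.88 and 6.45 CPM with mutant Gars. In Gcn2+/- mice it was 11.7, 13.6, 12.8 and 13.5 CPM with wild-type Gars and 12.7, 10.6, 12.5 and 11.4 CPM with mutant Gars. In Gcn2-/- mice it was 11.6, 15.1 and 17.4 CPM with wild-type Gars and 15.2, 18.2, 17.3, 16.0 and 14.8 CPM with mutant Gars. The mean level over both Gars genotypes thus rose with each lost copy: 8.47 ± 1.69, 12.3 ± 1.06 and 15.7 ± 2.07 CPM (SD, n = 8 each) with 0, 1 and 2 copies lost. With wild-type Gars the lowest Gcn2-/- library (11.6 CPM) lay below the lowest Gcn2+/- library (11.7 CPM). Gcn2-/- was not tested against Gcn2+/- alone. Within each Gars genotype every Gcn2-/- library exceeded every Gcn2+/+ library, a separation shared by 2.27% of tested genes with wild-type Gars and 2.11% with mutant Gars. Across both, the highest Gcn2+/+ library (replicate 2 with mutant Gars, rich in nerve root genes, 11.9 CPM) and the lowest Gcn2-/- library (replicate 1 with wild-type Gars, 11.6 CPM) crossed.

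The log2 change per lost Gcn2 copy was 0.45 ± 0.05 (SE, 95% interval 0.34 to 0.56, adjusted p = 7.14e-05), a fold of 1.36 per copy, and it ranked 4 of 17409 by p. It called 1 of the 5 receptor genes, against 0.661% of tested genes. With mutant Gars, Gcn2-/- against Gcn2+/+ gave 0.99 ± 0.14 (SE, adjusted p = 9.93e-04, fold 1.98), in a comparison in which 0.494% of tested genes were called and Gfra4 was the 1 receptor gene among them. Fitted on those groups alone it was 0.93 with an adjusted p of 0.158. With wild-type Gars the change was 0.74 ± 0.16 (SE, 95% interval 0.41 to 1.07) and was not called by edgeR (adjusted p = 0.265), in a comparison that called 0.0287% of tested genes. There DESeq2 called it at 0.75 (adjusted p = 0.00717), and edgeR called it at 0.76 (adjusted p = 0.0222) without replicate 2 of Gcn2+/+;GarsP278KY/+. Within the 2 sets of title numbers the difference of mean log2 CPM was 0.90 (later) and 1.03 (earlier) with mutant Gars and 0.85 (earlier, 3 against 1 mice) with wild-type Gars. The Schwann cell genes, high in 2 of the 4 Gcn2+/+;GarsP278KY/+ libraries, had a median of -3.08 for Gcn2 loss with mutant Gars (of 12, 0 called by edgeR, 10 at an unadjusted p under 0.05 and 5 called by DESeq2); without those 2 libraries Gfra4 was at 1.08, and with the Schwann score as a covariate at 0.95, both called. Other cell markers moved in that comparison too. The meninges and fibroblast genes had a median of -2.60 (of 12, 0 called by edgeR, 11 at an unadjusted p under 0.05 and 7 called by DESeq2), 2 of 4 sensory neuron genes fell (P2rx3 and Avil), 2 of 9 motor neuron genes rose (Chat by 0.45 ± 0.07 and Prph by 0.66 ± 0.11), and both fast motor neuron genes rose (Chodl by 1.47 ± 0.20 and Mmp9 by 0.55 ± 0.10). Per lost copy, edgeR called Mmp9 (higher), P2rx3 and Avil (both lower) among these genes. With wild-type Gars, where the Gfra4 change was 0.74, edgeR and DESeq2 called 0 genes of these 5 lists and 0 had an unadjusted p under 0.05. In that comparison 2 of 7 microglia genes (median -0.34) and 2 of 6 tested bone marrow and neutrophil genes (median 2.24) had an unadjusted p under 0.05. So did 3.68% of all tested genes, and edgeR and DESeq2 called 0 genes of these lists. For Gcn2 loss with mutant Gars the 7 neuron genes had a median of 0.10, with 7 above 0. Of these, edgeR called 0, DESeq2 called Snap25, and 1 had an unadjusted p under 0.05. With wild-type Gars 0 of the 7 were called or had an unadjusted p under 0.05. The part of these markers in the Gfra4 values was not tested otherwise. The other 4 receptor genes were called in neither Gcn2 comparison, with log2 changes from -0.29 to 0.05 with wild-type Gars and from -0.18 to 0.15 with mutant Gars.

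Gfra4 was not called for Gars genotype. The Gars effect was -0.06 ± 0.15 in Gcn2+/+, -0.16 ± 0.15 in Gcn2+/- and 0.19 ± 0.15 in Gcn2-/- mice (SE, adjusted p = 0.885, 0.629 and 0.941). In Gcn2-/- mice, where 0.0115% of tested genes were called, none of the 5 receptor genes was called for the Gars effect, and none had an unadjusted p under 0.05 (the lowest was 0.0941, for Ret) or was called by DESeq2. The difference of the Gars effects, a comparison that also called 0.0115% of tested genes and none of the 5 (none at an unadjusted p under 0.05 or by DESeq2), was 0.25 ± 0.22 for Gfra4 (SE, adjusted p = 0.937).

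**Figure D2:**
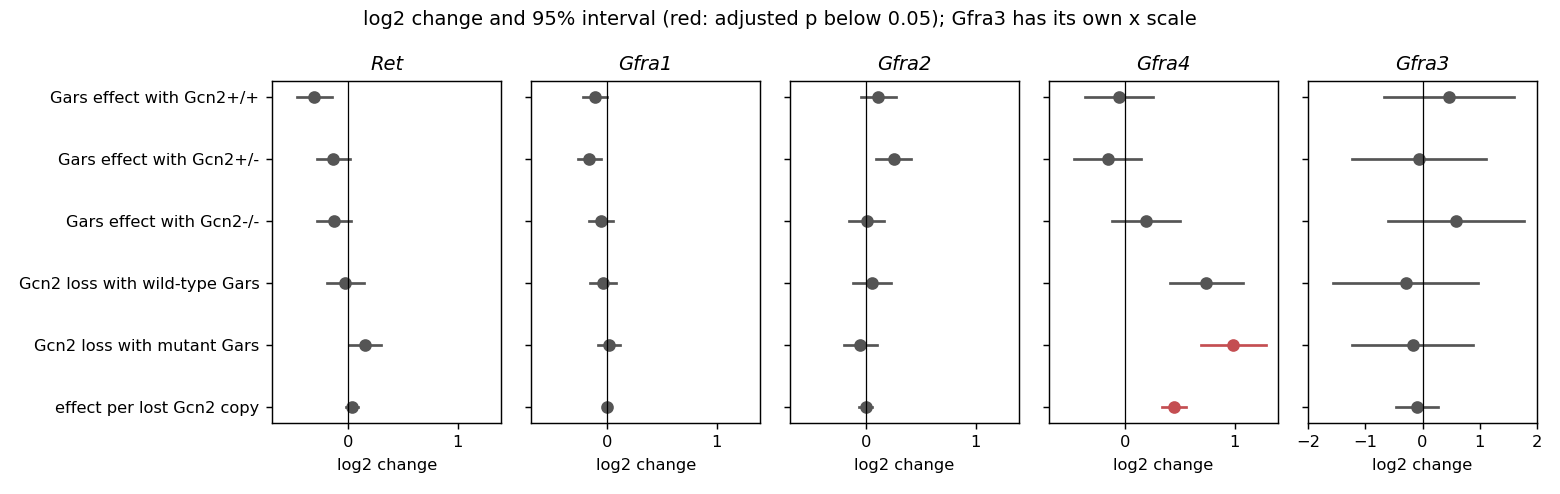
log2 change (x axis) with its 95% interval for each receptor gene in 6 comparisons (y axis); red marks an adjusted p under 0.05. Gfra4 alone has red intervals, for Gcn2 loss with mutant Gars (0.99) and per lost copy (0.45), and Gfra3 is drawn on its own wider scale.

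The deposited tables also give each gene's transcript length as a mean weighted by the abundance estimated for its transcripts. For Gfra4 this length was 1424 ± 57.0 bases in Gcn2+/+, 1360 ± 28.9 in Gcn2+/- and 1329 ± 17.3 in Gcn2-/- mice (SD, n = 8 each). Its mean thus shortened as the level rose, with the Gcn2+/+ range (1335 to 1516 bases) overlapping the Gcn2-/- range (1304 to 1358 bases). With wild-type Gars the length was alike in Gcn2+/- (1345 ± 20.1 bases, SD, n = 4) and Gcn2-/- mice (1343 ± 14.1, SD, n = 3). With mutant Gars it was 1376 ± 30.5 (SD, n = 4) and 1321 ± 13.7 bases (SD, n = 5). On the TPM scale, which divides by that length, Gfra4 was 12.9 ± 3.42, 19.7 ± 2.18 and 25.4 ± 3.65 TPM. The ratio of the Gcn2-/- to the Gcn2+/+ mean was 1.85 in CPM and 1.97 in TPM. Gfra2 and Gfra3 have 1 annotated transcript each. The lengths of Ret and Gfra1 overlapped among the 3 Gcn2 genotypes, as those of Gfra4 did.

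**Figure D3:**
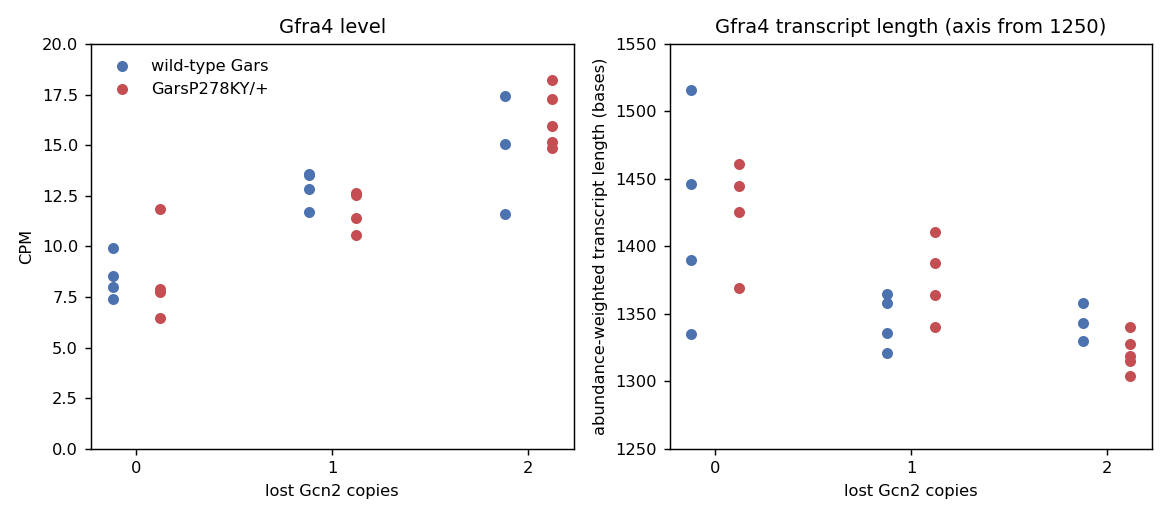
Left, Gfra4 CPM by number of lost Gcn2 copies, 1 point per mouse and colour by Gars genotype; right, the abundance-weighted length of its transcripts in bases, on an axis that does not start at 0. Means rise from 8.47 to 15.7 CPM while the length falls from 1424 to 1329 bases.

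Gfra4 is carried on the chromosome that holds the Gcn2 allele, so its neighbours were described alongside it. Of the 5 tested genes on each side, 2 were called per lost copy. Adam33, a metalloproteinase gene that ends 7.5 kb upstream of Gfra4 on the same strand (2:131050591-131063814), rose by 0.69 ± 0.10 (SE, adjusted p = 5.31e-04), from 1.58 ± 0.811 CPM in Gcn2+/+ to 4.06 ± 0.674 CPM in Gcn2-/- mice (SD, n = 8 each). Itpa, an enzyme that clears deaminated purine nucleotides (2:130667610-130681614), rose by 0.22 ± 0.03 (SE, adjusted p = 7.84e-04). The gene nearest on the other side, Atrn, 9.3 kb away, was at 0.01 ± 0.01 (adjusted p = 0.97), and Hspa12b, Spef1 and Cenpb were within 0.02 of 0. Slc4a11 (0.32 ± 0.11) and Siglec1 (-0.48 ± 0.19), both under 1 CPM on average, did not pass (adjusted p = 0.435 and 0.629).

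Genes on chromosome 2 near Eif2ak4 were called often. Within 20 Mb of it, 55 of 326 tested genes (16.9%) were called per lost copy, 35 of them higher, against 60 of the 17083 other genes, Eif2ak4 included (0.351%). Gfra4 ranked 3 by p among the 326. The 3 genes whose log2 CPM followed Gfra4 most closely over the 24 libraries were all on chromosome 2. They were Adam33 (Pearson r = 0.918, Spearman rho = 0.856), Ahcy (0.909 and 0.884) and Fitm2 (0.907 and 0.887). Ahcy (2:155059310-155074497) and Fitm2 (2:163466379-163472629) lie outside the 20 Mb window around Eif2ak4. All 3 were picked as the highest r among genes with a mean of at least 1 CPM, and the libraries share depth and genotype. Without the 2 libraries farthest from the Gfra4 median, r was 0.899, 0.875 and 0.877. The Gcn2 allele and the chromosome 2 sequence inherited with it cannot be told apart in this design.

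**Figure D4:**
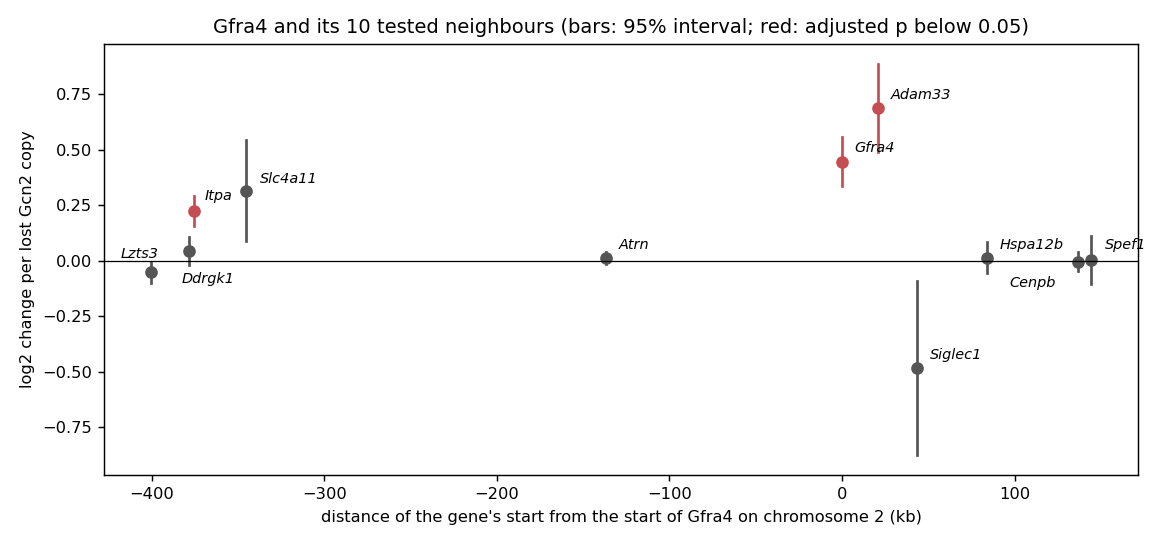
log2 change per lost Gcn2 copy (y axis, bars are the 95% interval) of Gfra4 and its 10 tested neighbours against the distance of their starts from that of Gfra4 in kb (x axis); red marks an adjusted p under 0.05. Gfra4 (0.45), Adam33 (0.69) and Itpa (0.22) are red, and Atrn and Hspa12b between and beyond them lie at 0.01.

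Gfra3, the artemin co-receptor, lies on chromosome 18 (ENSMUSG00000024366, GRCm38 18:34689898-34720387, minus strand). It was barely detected, at 2 to 13 counts per library and 169 counts in all 24. Its group means ran from 0.187 ± 0.107 CPM (SD, n = 3) in Gcn2-/-;Gars+/+ to 0.318 ± 0.138 CPM (SD, n = 4) in Gcn2+/+;GarsP278KY/+. Within Gcn2+/+;GarsP278KY/+, the 2 highest libraries (0.362 and 0.493 CPM) were the ones rich in nerve root genes. Within Gcn2+/-;Gars+/+ the libraries rich in these genes, replicates 1 and 3, were at 0.547 and 0.129 CPM. Replicates 2 and 4 of that group were at 0.286 and 0.102 CPM, so there the 2 kinds of library overlapped. The 95% interval of the Gars effect in Gcn2+/+ mice, from -0.68 to 1.60 on the log2 scale, is wide because of these low counts, and no difference was detectable at this depth.

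For the other members the closest genes were found by the same rule. Ret was closest to P2rx5 (r = 0.857, rho = 0.846), Acly (0.845 and 0.817) and Agtpbp1 (0.839 and 0.830), and without the 2 libraries farthest from its median these were 0.777, 0.788 and 0.794. Gfra1 was closest to Pappa (r = 0.785, rho = 0.806), Mrvi1 (0.781 and 0.734) and Npr3 (0.773 and 0.810). Gfra2 was closest to Setd5 (0.750 and 0.616), Pja1 (0.745 and 0.682) and Mdga1 (0.705 and 0.553), and Gfra3, at its few counts, to Rpl28 (0.721 and 0.649), Pnmal1 (0.694 and 0.693) and, as Gfra2, Mdga1 (0.687 and 0.566). Among the receptors themselves Ret and Gfra1 had r = 0.546 over 24 libraries and Gfra4 had r between -0.11 and 0.16 with each of the others.

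The ligands were scarce in whole cord. Summed over 24 libraries, Gdnf had 174 counts, Nrtn (neurturin) 472, Artn (artemin) 444 and Pspn (persephin) 29, and their mean levels were 0.149, 1.70, 0.873 and 0.368 TPM. Gfral, the receptor for GDF15 that also uses RET, had 12 counts. The alternative GDNF receptor Ncam1 (225 TPM) and the GDNF-binding Sdc3 (140 TPM) and Sorl1 (99.8 TPM) were abundant, and Gas1, which modulates RET signalling, was at 3.23 TPM. Of the 8 tested genes in this list edgeR called 0 in any of the 7 comparisons, with at most 2 at an unadjusted p under 0.05; DESeq2 called 1, Gdf15 per lost Gcn2 copy. Gdf15, at 84 counts in all, had the lowest p with mutant Gars in Gcn2+/+ mice (log2 change 3.05 ± 0.84, SE, adjusted p = 0.0903).

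Genes that act downstream of RET were also counted. Of 36 adaptors, kinases, feedback regulators and target transcription factors, edgeR called 0 in any of the 7 comparisons; 8 had an unadjusted p under 0.05 for the Gars effect in Gcn2+/+ mice, where 17.3% of all tested genes did, and DESeq2 called 2 there, Src and Spry2. With mutant Gars in Gcn2+/+ mice their median log2 change was -0.02 against 0.01 over all tested genes, and the lowest p belonged to the kinase Src (0.24 ± 0.07, adjusted p = 0.101), the feedback inhibitor Spry2 (-0.32 ± 0.10, adjusted p = 0.117), the PI3 kinase subunit Pik3ca (-0.16 ± 0.06, adjusted p = 0.147) and the MAP kinase phosphatase Dusp6 (-0.37 ± 0.14, adjusted p = 0.188). Per lost Gcn2 copy the median was -0.01 against -0.00 over all tested genes, and the ETS transcription factor Etv1 was at 0.16 ± 0.09 (adjusted p = 0.814).

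Among 16 receptors of other neurotrophic factors edgeR called 0 in any of the 7 comparisons, with medians between -0.05 and 0.04 and at most 4 at an unadjusted p under 0.05, reached for the Gars effect in Gcn2+/+ and Gcn2+/- mice; DESeq2 called Lifr for the Gars effect in Gcn2+/+ and Erbb4 in Gcn2+/- mice. The lowest adjusted p was that of Lifr, the receptor for leukaemia inhibitory factor, which was at -0.33 ± 0.08 with mutant Gars in Gcn2+/+ mice (SE, adjusted p = 0.0597), a size and p next to those of Ret in the same comparison.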

How the data were processed

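Poly(A) RNA of whole spinal cord was sequenced as 75-base pairs after TRIzol and column extraction, with 2 library kits named and not assigned to samples, per the labels' protocols. Bowtie2 2.2.0 and RSEM 1.2.12 are named in the submitters' processing notes; no label or header names the genome build or the strand setting. RSEM assigned reads to transcripts, and the authors deposited each gene's expected counts (estimated counts), its TPM and an abundance-weighted transcript length. Estimated counts were rounded to whole numbers. Of 38924 gene identifiers, 37607 matched GENCODE M21 (GRCm38), whose coordinates are given; unmatched ones held 0.261% of counts.

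Counts were tested with edgeR 4.0.16 (R 4.3.3; TMM, filterByExpr with a minimum count of 10, robust quasi-likelihood F test) in 1 fit of 24 libraries with 6 genotype groups and sex. The effect per lost copy used the number of lost Gcn2 copies, Gars genotype and sex. Benjamini-Hochberg adjustment ran over 17409 genes, with calls at an adjusted p under 0.05. Standard errors are the size of the change over the square root of F. CPM used TMM library sizes, and correlations used log2 CPM with a prior count of 2. The fits were checked on simulated counts. DESeq2 1.42.0, RLE scaling, no filter, no sex term, fewer groups, title numbers, a Schwann cell score and leaving out libraries were the alternatives. No 2 libraries of a group had counts within sampling noise of each other. Named genes are the 5 receptors, 3 pathway lists (the genes with the lowest p), 5 tested neighbours on each side of Gfra4 and the 3 most correlated genes. The receptors and lists were chosen with earlier results of these data known. Cell marker lists are given beside the results, not every list with every result. They are motor neurons, fast motor neurons, gamma motor neurons, neurons, sensory neurons and Schwann cells. The others are meninges and fibroblasts, astrocytes, oligodendrocytes, microglia, and bone marrow and neutrophils. Promoter windows are the 250 bases before RefSeq starts. Intervals cover the spread between mice.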

Additional observations from a re-analysis of the deposited data

How the results depend on the processing

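The Gfra4 change per lost Gcn2 copy was called under every alternative run, from 0.41 to 0.49 on the log2 scale, and with mutant Gars it was called under every one (0.88 to 1.17) except the fit on the groups compared alone, where the number of receptor genes called was 0 (Gfra4 at 0.93). With wild-type Gars the number called was 1 in DESeq2 and without both Gcn2+/+;GarsP278KY/+ libraries rich in nerve root genes (Gfra4 at 0.75 in both), and 0 to 1 when each library was left out. For the Gars effect in Gcn2+/+ mice it was 1 in DESeq2 and without the sex term (Ret at -0.32 and -0.31), and 0 to 1 when each library was left out. The cause was not tested. With the title number as a replicate block, 1 receptor gene was called per lost copy (Gfra4 at 0.49) and 1 for Gcn2 loss with mutant Gars (Gfra4 at 1.12), 0 in the other comparisons; Ret was at -0.34 (adjusted p = 0.0831) for the Gars effect in Gcn2+/+ and at -0.26 (adjusted p = 0.753) in Gcn2+/- mice. Libraries of different groups that share a title number correlated by 0.168 on average (-0.0758 to 0.408, 32 pairs), more than those with other numbers (-0.0259 on average, 207 pairs). Because not every pair was over 0.1, the numbers were kept out of the main fit. That rule does not show that libraries sharing a number are independent. Without the block the Ret estimate in Gcn2+/- mice was -0.14.

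The number of genes called over the whole table varied more: 110 for the Gars effect in Gcn2+/+ mice (11 to 640 under other settings, 47 to 600 with 1 library left out), 31 in Gcn2+/- (4 to 190, 18 to 66), 2 in Gcn2-/- (1 to 31, 1 to 3), 2 for their difference (0 to 35, 0 to 6), 5 for Gcn2 loss with wild-type Gars (4 to 36, 3 to 10), 86 with mutant Gars (21 to 249, 47 to 110) and 115 per lost copy (80 to 210, 83 to 138).

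The changes of sign below belong to estimates near 0 or to Gfra3 at its few counts, and none of them was called under any setting. Gfra3 has no value on the groups compared alone for the Gars effects or for Gcn2 loss with wild-type Gars, where it failed the filter, and DESeq2 gave it no adjusted p for the Gars effect in Gcn2+/+ and Gcn2+/- mice. Without the sex term the Gars effect on Gfra4 in Gcn2+/+ mice was 0.0027. Under the replicate block the Gars effect on Gfra2 in Gcn2-/- mice was -0.028, the difference of the Gars effects on Gfra3 was -0.093 and Gfra1 per lost copy was 0.0079. With the title numbers in 2 sets, Gfra3 was 0.063 (Gars, Gcn2+/-), -0.30 (difference) and 0.12 (Gcn2 loss, wild-type Gars), Gfra2 was -0.065 (Gars, Gcn2-/-) and 0.0017 (per copy), Gfra1 was 0.0021 (per copy) and Ret was 0.015 (Gcn2 loss, wild-type Gars). With the Schwann score, Gfra3 was -0.25 (Gars, Gcn2+/+), 0.55 (Gars, Gcn2+/-), 0.55 (Gcn2 loss, mutant Gars) and 0.042 (per copy), Gfra2 was -0.0011 (Gars, Gcn2-/-) and Gfra1 was 0.0075 (per copy). The Gars effect on Gfra2 in Gcn2-/- mice was -0.016 on the groups compared alone and -0.0034 on the 4 listed genotypes. Without both libraries rich in nerve root genes, Gfra3 was -0.18 (Gars, Gcn2+/+), 0.48 (Gcn2 loss, mutant Gars) and 0.072 (per copy), Gfra2 was -0.0032 (Gars, Gcn2-/-), 0.027 (Gcn2 loss, mutant Gars) and 0.0082 (per copy), and Gfra1 was 0.0035 (per copy).

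With each library left out in turn, the Gars effect ran from -0.23 to 0.051 for Gfra4 in Gcn2+/+, from -0.62 to 0.52 for Gfra3 in Gcn2+/- and from -0.057 to 0.064 for Gfra2 in Gcn2-/- mice. The difference of the Gars effects ran from -0.015 to 0.076 for Gfra1 and from -0.28 to 0.62 for Gfra3. Gcn2 loss with wild-type Gars ran from -0.059 to 0.013 for Ret, from -0.0060 to 0.11 for Gfra2 and from -0.84 to 0.035 for Gfra3, and with mutant Gars from -0.038 to 0.036 for Gfra1 and from -0.49 to 0.11 for Gfra3. Per lost copy it ran from -0.012 to 0.0048 for Gfra1 and from -0.025 to 0.0069 for Gfra2.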
